A study of Mus musculus with 6 samples.

Results

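RNA of cultured lymph node (LN) stromal cell lines was set against RNA of mouse embryonic fibroblasts (MEF), a common reference for cultured connective tissue cells. The comparison used 3 of the 6 arrays in the series, namely 1 of MEF, 1 of the line BLS4 and 1 of the line BLS12, each hybridised to a single-colour Affymetrix whole-transcript array. The MEF came from trypsin-digested C57BL/6JJcl embryos of stages E11.5 to E13.5. BLS4 and BLS12 were established from BALB/cA mice, carry the tissue label adult lymph node and were grown without the lymphotoxin β receptor (LTβR) agonistic antibody that other arrays of the same lines received. The cells of all 3 arrays were grown in DMEM with fetal calf serum and antibiotics. The remaining arrays, the antibody-treated lines and 1 array of stroma sorted fresh from adult C57BL/6JJcl lymph nodes (CD45-, CD31-, podoplanin+, VCAM-1+), served only as values set beside those of the lines.

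The groups differed in strain, in age, in tissue and in being an established line, and these factors cannot be told apart in the design. Sex, passage number, the number of embryos behind the MEF culture and whether each line is 1 clone are not stated in the labels. Genes entered the comparison when a row of the table named that gene alone, and the brightest such row stood for the gene. Of 19938 genes with such a row, 12676 reached the array median in at least 1 of the 3 arrays and were compared. Levels below are log2 of the deposited intensity, so 1 unit is a 2-fold difference, and a difference is line minus MEF unless stated otherwise. A gene is called higher or lower than MEF when both BLS4 and BLS12 differed from it at least 4-fold, 2 log2 units, in the same direction. With 1 MEF array this is a rule of size with no replicate check, and both differences subtract the same MEF value.

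Fibroblastic reticular cells are the connective tissue framework of the lymph node. They express podoplanin, VCAM-1 and platelet-derived growth factor receptors, and LTβR signalling drives their mature production of the homeostatic chemokines CCL19, CCL21 and CXCL13 and of the T cell survival factor IL-7. In the embryo these cells arise from mesenchymal progenitors that first act as lymphoid tissue organizers. MEF cultures are mixtures of mesenchymal cells from many regions of the embryo, and freshly prepared ones can carry macrophages, endothelium and neural derivatives along with fibroblasts.

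The labelled identities were read against their markers first. Of 13 general fibroblast markers, 12 stood at or above the array median in each of MEF, BLS4 and BLS12, the exception being Lum, the collagen-binding proteoglycan lumican, at 5.43 in MEF, 3.79 in BLS4 and 4.32 in BLS12. Of 10 reticular cell markers with a row of their own, 8 reached the median in MEF and 8 in each line. Pdpn, the gene of podoplanin, stood at 10.42 in MEF, 11.00 in BLS4 and 11.13 in BLS12. Vcam1, an adhesion ligand for lymphocyte integrins, stood at 9.96 in MEF, 9.83 in BLS4 and 10.93 in BLS12. Pdpn and Vcam1 lay within 1 log2 unit of MEF in both lines. Other surface genes of the list did not: Pdgfra was higher, at 8.22 in MEF, 11.60 in BLS4 and 11.12 in BLS12, and Thy1 lower, at 10.98 in MEF, 6.76 in BLS4 and 8.25 in BLS12. The chemokine genes Ccl19 and Cxcl13 were no higher than dim, near or below the array median, in the lines and in MEF alike. Ccl19 stood at 6.08 in MEF, 6.04 in BLS4 and 6.04 in BLS12, and in sorted LN stroma at 12.49. Cxcl13 stood at 4.64 in MEF, 4.69 in BLS4 and 5.11 in BLS12, and in sorted LN stroma at 12.82. Il7 was below the array median in all 3 cultures, at 5.44 in MEF, 3.89 in BLS4 and 4.10 in BLS12, with 9.13 in sorted LN stroma. Ccl21a and Ly6a had no row that named them alone and were not analysed here.

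Across the 12676 genes, 39 were higher in both lines, which is 0.308% of those compared, and 144 were lower, which is 1.14%. Counted against all 19938 genes with a row, the shares were 0.196% and 0.722%. The list counts at 4-fold given below are to be read beside these shares. The median difference over the genes compared was -0.01 in BLS4 and 0.02 in BLS12. The deposited arrays were already on a common scale, so this does not show whether total RNA content differed. Taken singly, BLS4 had 142 genes higher and 243 lower at 4-fold, and BLS12 had 178 and 285. The 144 lower genes were close in the 2 lines: in 131 of them BLS4 and BLS12 lay within 1 log2 unit of each other, with a median gap of 0.24. In 94 of the 144, both lines were below their array median, where signal and background are hardest to separate, so a fold there reads a bright MEF value against a dim one. The gap between the lines has the same limit, since dim values can lie close together by being dim. The share of all genes compared with so small a gap is not given here. Of the 39 higher genes, 30 had the lines within 1 unit, with a median gap of 0.53, and 15 had MEF below its array median. Only genes at or above the median in 1 array at least could be called, and 396 of the genes compared were kept through MEF alone and 891 through the lines alone. When all 3 arrays had to reach the median, which removes genes that are dim on either side, 24 were higher and 41 lower, so that lower genes were 63.1% of the calls in place of 78.7%. With values below the array median raised to it, 33 were higher and 97 lower, and among the called genes named in the text Adgre1, Alx1, C1qb, C1qc, Ccl3, Cybb, Cyp2c55, Dpt, Emcn, Eya1, Fabp7, H60b, Ifi203, Laptm5, Rgs5, Samd9l, Sox2, Tlr1 and Xist no longer differed 4-fold in both lines.

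The limma fit of the 3 arrays took its spread from the 2 lines, with 1 residual degree of freedom, and assumed that the lone MEF array varied as the lines did. It passed 0 genes after Benjamini-Hochberg adjustment, 0% of those tested, with a smallest adjusted p of 0.299, and 815 genes, 6.43%, had an unadjusted p under 0.05. In a limma fit over all 6 arrays, where the antibody-treated lines add to the estimate of spread, 30 genes passed, 3 higher (Xdh, Lpl and Ifi202b) and 27 lower, each at a limma adjusted p of 0.04929, and all 30 were among the 183 called by size. Those calls did not hold when the unstimulated array of either line was left out. The antibody-treated arrays of both lines stayed in that fit and alone gave its spread. At the edge of the size rule stood Samd9l, with a smaller difference of 2.001, just inside on the higher side, and Hoxc13 at 1.999 just outside. On the lower side Aif1l at -2.015 was just inside and Scn7a at -1.997 just outside.

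**Figure D1:**
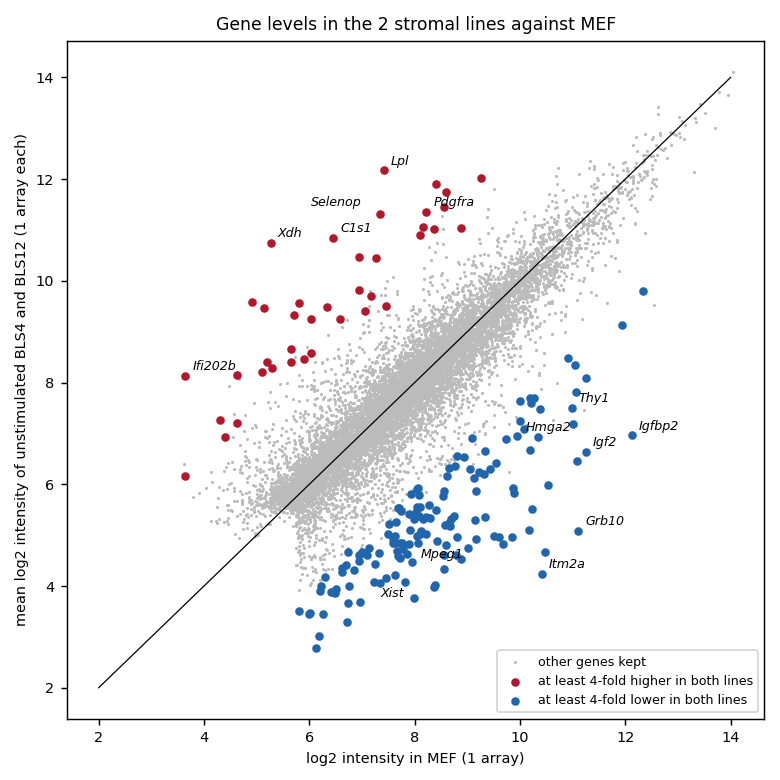
Log2 intensity of each gene compared in MEF (horizontal axis) against the mean of unstimulated BLS4 and BLS12 (vertical axis), 1 array per culture, with the line of equal levels. The 144 genes at least 4-fold lower in both lines (blue) outnumber the 39 at least 4-fold higher (red), and many of the blue points lie at low levels in the lines.

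Xdh and Lpl stood furthest above MEF by the smaller of the 2 lines' differences, the measure by which genes are ranked here. Xdh, the xanthine dehydrogenase that makes uric acid, stood at 5.27 in MEF, 10.64 in BLS4 and 10.86 in BLS12. That is 41.5-fold and 48.4-fold above MEF in BLS4 and BLS12, the order of paired folds from here on. Lpl, the lipoprotein lipase that releases fatty acids from circulating triglyceride, stood at 7.41 in MEF, 12.04 in BLS4 and 12.30 in BLS12, or 24.7-fold and 29.7-fold above MEF. Gda, the guanine deaminase that acts upstream of xanthine dehydrogenase in purine breakdown, stood at 5.66 in MEF, 8.40 in BLS4 and 8.94 in BLS12. In all of these both lines were well above MEF and close to each other.

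Selenop, a secreted carrier of selenium, stood at 7.33 in MEF, 11.66 in BLS4 and 10.98 in BLS12. Mgst1, a microsomal glutathione transferase, stood at 8.17 in MEF, 11.13 in BLS4 and 11.00 in BLS12. The cytosolic glutathione transferases Gstm2, at 6.94 in MEF, 9.99 in BLS4 and 9.66 in BLS12, and Gstt1, at 6.33 in MEF, 9.05 in BLS4 and 9.93 in BLS12, were chosen after their values were seen, as was Sod3, the extracellular superoxide dismutase, at 5.29 in MEF, 8.71 in BLS4 and 7.85 in BLS12. Each of these 5 genes was higher in both lines by the 4-fold rule.

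C1s1, a serine protease of the first complement component, stood at 6.45 in MEF, 11.07 in BLS4 and 10.62 in BLS12, 24.7-fold and 18.1-fold above MEF. C1ra, the protease that cleaves it, stood at 4.62 in MEF, 8.09 in BLS4 and 8.22 in BLS12. Both have near-identical copies in the mouse genome, so signal could be shared between copies. Mmp19, a matrix metalloproteinase, stood at 6.93 in MEF, 10.27 in BLS4 and 10.67 in BLS12, and Serpinb1a, an inhibitor of neutrophil proteases, at 5.14 in MEF, 9.01 in BLS4 and 9.91 in BLS12. MEF was the lowest of the 3 cultures for each of these genes.

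Fgf10, a mesenchymal growth factor that acts on epithelium, stood at 6.02 in MEF, 9.52 in BLS4 and 8.98 in BLS12. Pdgfra, the receptor that marks many tissue fibroblasts including reticular cells, was 10.4-fold and 7.49-fold above MEF, and sorted LN stroma stood at 12.26. Tgfbr3, the co-receptor betaglycan, which presents TGF-β ligands, stood at 7.26 in MEF, 10.19 in BLS4 and 10.69 in BLS12. Vegfd, a lymphatic growth factor chosen after its values were seen, stood at 8.60 in MEF, 12.17 in BLS4 and 11.32 in BLS12. Scg2, a granin of secretory granules, was less even across the lines at 5.81 in MEF, 10.30 in BLS4 and 8.84 in BLS12. Pcdhb16, at 5.20 in MEF, 8.35 in BLS4 and 8.46 in BLS12, belongs to a cluster of closely similar protocadherin genes, and its signal may be shared among them.

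Ifi202b, an interferon-inducible DNA-binding protein, was below the array median in MEF and above it in the lines, at 3.64 in MEF, 8.02 in BLS4 and 8.24 in BLS12. The sorted LN stroma, which shares the C57BL/6JJcl strain of the MEF, stood at 3.94. Other genes for which sorted LN stroma was as dim as MEF while both BALB/cA-derived lines were higher were picked out after their values were seen. These were Tlr1, a receptor for bacterial lipopeptides, at 4.62 in MEF, 7.60 in BLS4 and 6.82 in BLS12 and 4.90 in sorted LN stroma, and Cyp2c55, a cytochrome P450, at 3.63 in MEF, 5.90 in BLS4 and 6.44 in BLS12 and 3.71 in sorted LN stroma. H60b, a ligand of the NKG2D receptor of killer cells, stood at 5.11 in MEF, 7.43 in BLS4 and 8.98 in BLS12 and 3.29 in sorted LN stroma. Strain and origin as a line cannot be told apart here. By contrast, sorted LN stroma stood at 10.51 for Xdh, 11.60 for Lpl, 12.42 for C1s1 and 9.76 for Mmp19, in each case nearer to the lines than to MEF.

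**Figure D2:**
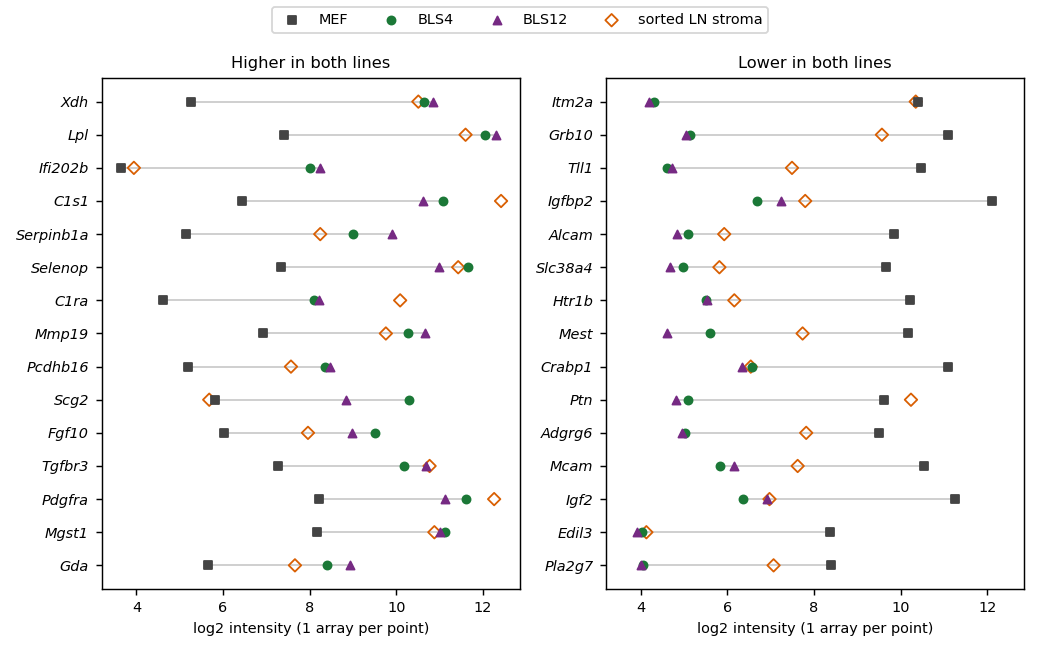
Log2 intensity of the 15 genes with the largest differences above MEF (left) and below MEF (right), chosen by the smaller of the 2 lines' differences, with 1 array per point. MEF (grey squares) lies apart from BLS4 (green circles) and BLS12 (purple triangles) in every row, and sorted LN stroma (open diamonds) lies near the lines for Xdh and Lpl and near MEF for Ifi202b and Itm2a.

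Imprinted genes made up 6 of the 144 lower genes. Genomic imprinting silences 1 parental copy of a gene, and many imprinted genes are growth regulators that are highly expressed in the embryo and decline after birth. Of 24 imprinted genes with a row, 20 of which passed the filter on low values, 6 were lower in both lines at 4-fold and 0 higher, where 0.722% of all genes with a row were lower. At 2-fold, 10 were lower and 0 higher, against 2.45% and 1.25% of all genes with a row. The median difference over the 24 was -1.41, against 0.02 over all 19938 genes. The 6 were Grb10, Slc38a4, Mest, Igf2, Plagl1 and Meg3. Of these, 5 (Igf2 being the exception) reached the array median in MEF alone, so they entered the comparison through the culture where they were high, and the count is a description. Macrophage, neural and pericyte markers were lower in the lines too, with list medians of -1.55, -0.78 and -1.26, and their part in the lower levels of imprinted, contractile and other genes was not tested.

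Grb10, an adaptor that restrains insulin and IGF receptor signalling, went from 11.10 in MEF to 5.13 in BLS4 and 5.05 in BLS12, and stood at 9.57 in sorted LN stroma. That is 62.9-fold and 66.6-fold below MEF. Slc38a4, an amino acid transporter, stood at 9.67 in MEF, 4.99 in BLS4 and 4.68 in BLS12. Mest, a hydrolase-like protein of embryonic mesoderm, stood at 10.17 in MEF, 5.60 in BLS4 and 4.61 in BLS12. Igf2, the fetal growth factor, stood at 11.25 in MEF, 6.36 in BLS4 and 6.92 in BLS12, or 29.7-fold and 20.1-fold below MEF. Plagl1, a zinc finger factor placed at the centre of an imprinted gene network, stood at 8.60 in MEF, 5.01 in BLS4 and 4.62 in BLS12. The non-coding RNA Meg3 stood at 8.21 in MEF, 5.04 in BLS4 and 5.01 in BLS12. For each of these genes the 2 lines lay within 1 log2 unit of each other, and MEF stood above both.

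Not every imprinted gene followed. Cdkn1c, a cyclin-dependent kinase inhibitor that limits fetal growth, was 2-fold lower or more in both lines, at 8.48 in MEF, 6.64 in BLS4 and 6.37 in BLS12. Peg3 was lower chiefly in BLS4, at 9.51 in MEF, 5.55 in BLS4 and 8.70 in BLS12. Sgce, the sarcoglycan that lies beside Peg10, was above MEF in both lines at 8.79 in MEF, 10.11 in BLS4 and 9.77 in BLS12, and Impact, a regulator of translation, stood at 10.96 in MEF, 11.01 in BLS4 and 10.40 in BLS12. Dio3, the deiodinase that inactivates thyroid hormone, was far apart between the lines at 5.26 in MEF, 9.96 in BLS4 and 5.03 in BLS12. H19 had no row that named it alone and was not analysed here.

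Imprinted loci carry microRNAs inside their transcripts, and the sequences are given because Mest and Igf2 are among their hosts. By RefSeq annotation of GRCm38.p6, Mir335 lies within Mest, Mir483 within Igf2 and Mir675 within H19. The mature forms are written 5′ to 3′ with the seed, bases 2 to 8, in capitals.
mmu-miR-335-5p: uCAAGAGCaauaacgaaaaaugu
mmu-miR-335-3p: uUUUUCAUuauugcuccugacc
mmu-miR-483-5p: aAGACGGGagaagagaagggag
mmu-miR-483-3p: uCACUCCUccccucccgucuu
mmu-miR-675-5p: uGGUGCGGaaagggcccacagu
mmu-miR-675-3p: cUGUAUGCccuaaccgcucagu
The array does not measure mature microRNAs. The row named Mir335 alone stood at 4.76 in MEF, 4.91 in BLS4 and 4.98 in BLS12, below the array median in each, and did not follow its host Mest. The row named Mir483 alone stood at 6.91 in MEF, 7.35 in BLS4 and 7.01 in BLS12. A row that carries both Mir675 and Supt6 stood at 9.39, 5.29 and 5.07 in the same order, and which of the genes under it gave that signal cannot be told apart.

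Insulin-like growth factor (IGF) receptors and binding proteins form a list of their own. IGF-binding proteins hold the ligands in the tissue, and PAPP-A frees them by cutting the binding proteins. All 13 genes of the list had a row and passed the filter. At 4-fold 3 were lower and 0 higher, where 0.722% of all genes with a row were lower, 8 of the 13 did not differ 2-fold in both lines, and the list median was -1.06. Igfbp2 stood at 12.12 in MEF, 6.68 in BLS4 and 7.25 in BLS12, 43.4-fold and 29.3-fold below MEF. Igfbp5 stood at 10.20 in MEF, 6.58 in BLS4 and 6.77 in BLS12, and Pappa at 9.73 in MEF, 7.40 in BLS4 and 6.38 in BLS12. Igfbp6, which prefers IGF-II, was the 1 member above MEF by 2-fold or more in both lines, at 8.31 in MEF, 10.82 in BLS4 and 10.0 in BLS12. The receptor gene Igf1r was lower by 2-fold or more in both, at 10.01 in MEF, 8.88 in BLS4 and 8.46 in BLS12. Igf1, the postnatal ligand, was higher by 2-fold or more in both lines at 7.31 in MEF, 8.48 in BLS4 and 10.34 in BLS12.

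A small list of oncofetal genes, active in the embryo and in tumours, gave 2 lower members of 9 with a row (7 passed the filter). Among all genes with a row, 0.722% were lower. Hmga2, a chromatin protein of proliferating mesenchyme, stood at 10.39 in MEF, 7.81 in BLS4 and 7.13 in BLS12. Igf2bp1, which binds Igf2 and other mRNAs, stood at 8.80 in MEF, 6.49 in BLS4 and 6.63 in BLS12; as the mean over its rows its difference was -1.56 and no longer 4-fold. Igf2bp3 was little different at 8.41 in MEF, 7.90 in BLS4 and 8.08 in BLS12. Lin28a and Lin28b were at 6.44 in MEF, 6.57 in BLS4 and 6.27 in BLS12, and 4.13 in MEF, 4.01 in BLS4 and 3.69 in BLS12, respectively. The list median was -0.28.

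Contractile genes of smooth muscle and myofibroblasts lay mostly below MEF, 5 of them by 4-fold. These genes are transcribed in response to serum response factor and TGF-β and rise when fibroblasts are activated in culture. Of 19 listed genes, all with a row and 18 past the filter, 5 were lower at 4-fold and 10 at 2-fold, against 0.722% and 2.45% of all genes with a row. At 2-fold 0 were higher in both lines, and the median was -1.31. In 18 of the 19 both lines lay below MEF, as they did in 31.1% of all genes with a row. Of the 5, 2 reached the array median in MEF alone. Tagln, the actin-binding protein transgelin, stood at 12.34 in MEF, 10.13 in BLS4 and 9.47 in BLS12. Cnn1, calponin, stood at 10.20 in MEF, 7.88 in BLS4 and 7.52 in BLS12. Actg2, the smooth muscle γ-actin, went from 9.43 in MEF to 6.33 in BLS4 and 6.25 in BLS12. Des, the intermediate filament protein desmin, stood at 8.21 in MEF, 5.51 in BLS4 and 5.21 in BLS12, and Itga8, an integrin subunit of mesenchyme, at 8.81 in MEF, 5.29 in BLS4 and 4.62 in BLS12.

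Acta2, the α-actin that defines myofibroblasts, was still among the bright genes of both lines at 13.30 in MEF, 12.14 in BLS4 and 12.13 in BLS12, 2.23-fold and 2.24-fold below MEF. The exception was Mylk, the myosin light chain kinase, at 6.14 in MEF, 6.73 in BLS4 and 8.68 in BLS12. TGF-β and BMP genes were mixed beside them: of 36 with a row, 33 past the filter, 1 was higher and 2 lower at 4-fold, and the median was -0.39. Shares over all genes with a row were 0.196% higher and 0.722% lower. Tgfb3, a TGF-β ligand, stood at 10.92 in MEF, 8.82 in BLS4 and 8.14 in BLS12. Inhba, the activin A subunit, stood at 11.06 in MEF, 8.80 in BLS4 and 6.83 in BLS12. Tgfbr3, given above, was the member that was higher. The receptors Tgfbr1 and Tgfbr2 were neither higher nor lower by 2-fold in both lines, at 8.07 in MEF, 7.68 in BLS4 and 6.88 in BLS12, and 9.22 in MEF, 10.50 in BLS4 and 9.69 in BLS12.

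**Figure D3:**
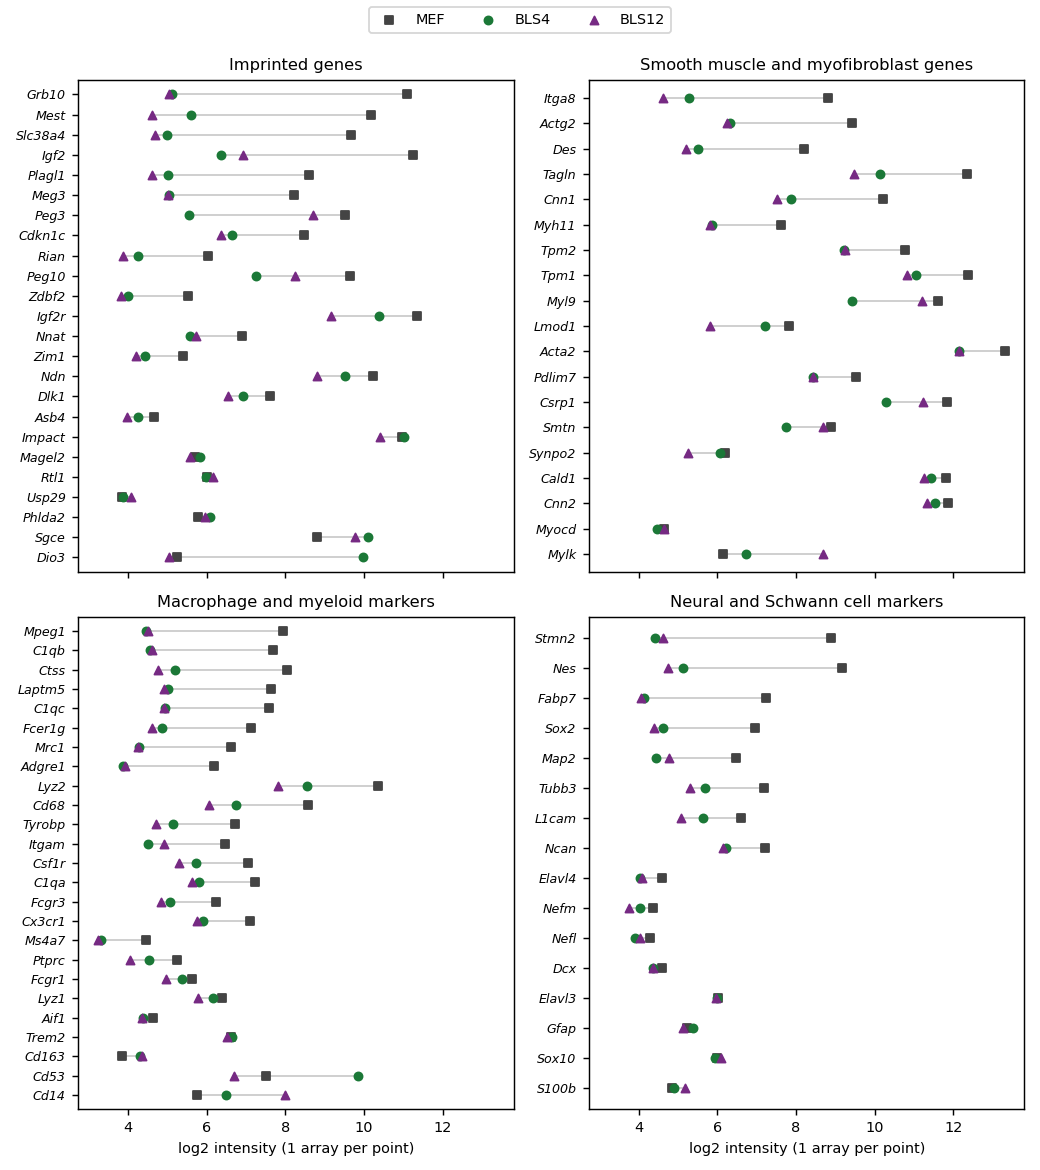
Log2 intensity of every member with a row of 4 lists, imprinted genes, contractile genes, macrophage and myeloid markers, and neural and Schwann cell markers, in MEF (grey squares), BLS4 (green circles) and BLS12 (purple triangles), 1 array per point, ordered by the mean difference of the lines from MEF. MEF lies to the right of both lines for 17 of 24 imprinted, 18 of 19 contractile, 21 of 25 macrophage and 13 of 16 neural genes. Both lines lay below MEF in 31.1% of all genes with a row.

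By the smaller of the 2 lines' differences, the gene furthest from MEF was Itm2a, a membrane protein of developing cartilage, muscle and thymocytes, at 10.41 in MEF, 4.30 in BLS4 and 4.19 in BLS12. That is 68.9-fold and 74.7-fold below MEF, while sorted LN stroma stood at 10.35. Tll1, a BMP1-like protease that processes collagens and chordin, stood at 10.47 in MEF, 4.61 in BLS4 and 4.73 in BLS12. Ptn, pleiotrophin, a secreted growth factor of developing tissues, stood at 9.61 in MEF, 5.10 in BLS4 and 4.81 in BLS12 and at 10.24 in sorted LN stroma. For Itm2a and Ptn the sorted stroma thus lay nearer to MEF than to the lines. Htr1b, a serotonin receptor, stood at 10.22 in MEF, 5.50 in BLS4 and 5.54 in BLS12, and Adgrg6, an adhesion receptor required for myelination, at 9.51 in MEF, 5.03 in BLS4 and 4.94 in BLS12. Edil3, an integrin ligand, stood at 8.36 in MEF, 4.04 in BLS4 and 3.91 in BLS12, and Pla2g7, which breaks down platelet-activating factor, at 8.38 in MEF, 4.06 in BLS4 and 4.0 in BLS12. In each of these the 2 lines lay close together and far below MEF.

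Stromal surface and adhesion molecules divided. Of 27 with a row, 24 past the filter, 1 was higher (Pdgfra) and 4 were lower, and the median was -0.27. Over all genes with a row the shares were 0.196% higher and 0.722% lower. Alcam, 1 of the 4, reached the array median in MEF alone. Alcam, a homophilic adhesion molecule that also binds CD6, stood at 9.85 in MEF, 5.10 in BLS4 and 4.84 in BLS12. Mcam, an adhesion molecule of pericytes and endothelium, stood at 10.53 in MEF, 5.84 in BLS4 and 6.15 in BLS12. Thy1, a surface glycoprotein used to sort fibroblasts, stood at 10.98 in MEF, 6.76 in BLS4 and 8.25 in BLS12, and Cd44, the hyaluronan receptor, at 10.01 in MEF, 7.83 in BLS4 and 7.42 in BLS12. All 4 were far above the median in MEF. Cd34, a glycoprotein of adventitial and progenitor-like stroma, was higher by 2-fold or more in both lines at 8.33 in MEF, 9.58 in BLS4 and 10.62 in BLS12. Icam1 and Pdgfrb lay on different sides of MEF in the 2 lines, at 7.78 in MEF, 6.66 in BLS4 and 8.38 in BLS12, and 10.32 in MEF, 11.87 in BLS4 and 9.43 in BLS12, respectively. Madcam1, the addressin of organizer cells, and Lepr, the leptin receptor, were below the array median in all 3 cultures. The integrin subunits Itga4, at 8.43 in MEF, 5.08 in BLS4 and 4.70 in BLS12, and Itga6, at 9.34 in MEF, 5.46 in BLS4 and 5.25 in BLS12, outside the list and chosen after their values were seen, were lower in both lines.

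Ltbr, the receptor through which lymphotoxin acts on reticular cells, stood at 8.33 in MEF, 8.78 in BLS4 and 8.74 in BLS12, and none of the 18 LTβR and NF-κB pathway genes with a row (17 past the filter) differed 2-fold in both lines. Their median difference was 0.11. Nfkb2 and Relb, the subunits of the alternative pathway downstream of LTβR, stood at 8.53 in MEF, 8.03 in BLS4 and 9.27 in BLS12, and 7.42 in MEF, 7.43 in BLS4 and 7.60 in BLS12, respectively.

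Cytokines and growth factors of lymphoid stroma numbered 19 with a row, 16 past the filter. Of these 1 was higher at 4-fold and 0 lower, where 0.196% of all genes with a row were higher. At 2-fold 4 were higher and 0 lower, against 1.25% and 2.45% of all genes with a row. Il7, given above, stood more than 2-fold below MEF in both lines but was under the filter and is not in that count. Hgf, hepatocyte growth factor, was the 4-fold gene, at 5.70 in MEF, 10.89 in BLS4 and 7.76 in BLS12. Kitl, stem cell factor, stood at 7.15 in MEF, 8.53 in BLS4 and 11.07 in BLS12, and Tnfsf13b, the B cell survival factor BAFF, at 4.94 in MEF, 6.98 in BLS4 and 6.63 in BLS12. Igf1, given above, was the fourth. Apart from Tnfsf13b, which was close in the 2 lines, these genes were uneven, Hgf being higher in BLS4 and Kitl and Igf1 higher in BLS12. The list median was 0.31, with 0.36 in BLS4 and -0.04 in BLS12. Cxcl12, which retains lymphocytes and plasma cells, was above MEF in BLS4 alone at 9.83 in MEF, 11.46 in BLS4 and 9.26 in BLS12. Il33 was above MEF by 2-fold or more in BLS12 alone, at 4.80 in MEF, 5.16 in BLS4 and 7.61 in BLS12, and Il6 stood at 4.14 in MEF, 7.41 in BLS4 and 5.08 in BLS12.

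Inflammatory chemokines gave 0 higher and 2 lower members at 4-fold out of 21 with a row, 14 past the filter, with a median of 0.01. The 2 are 9.52% of those with a row, where 0.722% of all genes with a row were lower. Both reached the array median in MEF alone, so the count is a description. Cxcl14, a chemokine of resting fibroblasts and epithelium, stood at 8.66 in MEF, 5.46 in BLS4 and 5.0 in BLS12. Ccl3, a product of macrophages, stood at 6.30 in MEF, 4.26 in BLS4 and 4.12 in BLS12. At 2-fold 3 were higher, 14.3% of those with a row, where 1.25% of all genes with a row were higher. Among them was Cxcl5, a neutrophil chemokine, at 4.56 in MEF, 8.49 in BLS4 and 6.27 in BLS12. Ccl8, a monocyte chemokine, was another, at 4.66 in MEF, 10.13 in BLS4 and 6.02 in BLS12. Both stood far higher in BLS4 than in BLS12. Ccl2, a monocyte chemokine as well, was above MEF in BLS4 alone at 7.46 in MEF, 10.20 in BLS4 and 7.40 in BLS12.

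Collagen chains as a list were level with MEF. All 36 collagen chains had a row and passed the filter, 2 were higher and 1 lower at 4-fold, and the median was -0.01. For all genes with a row the shares were 0.196% higher and 0.722% lower. The fibrillar chains Col1a1, at 13.11 in MEF, 12.74 in BLS4 and 12.83 in BLS12, and Col1a2, at 12.88 in MEF, 12.86 in BLS4 and 12.94 in BLS12, were not 2-fold from MEF in either line. The higher chains were Col6a1, at 9.25 in MEF, 11.64 in BLS4 and 12.40 in BLS12, and Col6a2, at 8.55 in MEF, 10.91 in BLS4 and 12.01 in BLS12, which assemble together into the beaded microfibrils of collagen VI. The third partner, Col6a3, was above MEF in BLS4 and below it in BLS12, at 9.05 in MEF, 11.31 in BLS4 and 8.12 in BLS12. The lower chain was Col11a1, of cartilage and embryonic fibrils, at 9.54 in MEF, 6.46 in BLS4 and 6.39 in BLS12. Col14a1, a fibril-associated chain, stood at 8.06 in MEF, 6.09 in BLS4 and 5.47 in BLS12.

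Proteoglycans, elastic fibre and matricellular proteins numbered 55 with a row, 51 past the filter, and gave 1 higher and 3 lower, with a median of -0.21. Shares over all genes with a row were 0.196% and 0.722%, and 1 of the 3 lower genes, Fbn2, reached the array median in MEF alone. Dpt, dermatopontin, which binds decorin and collagen, was the higher gene at 4.91 in MEF, 11.67 in BLS4 and 7.52 in BLS12. Its excess over MEF was far larger in BLS4 than in BLS12. Fbn2, the fibrillin of embryonic microfibrils, stood at 8.68 in MEF, 5.13 in BLS4 and 5.24 in BLS12. Aspn, asporin, which binds TGF-β, stood at 9.86 in MEF, 7.13 in BLS4 and 4.73 in BLS12, and Smoc2, a calcium-binding matricellular protein, at 8.65 in MEF, 6.51 in BLS4 and 6.13 in BLS12. Fn1, fibronectin, stood near MEF in both lines at 13.34 in MEF, 13.12 in BLS4 and 13.12 in BLS12. Postn, periostin, was above MEF in BLS4 and below it in BLS12 at 11.45 in MEF, 12.49 in BLS4 and 6.95 in BLS12, whereas Dcn, decorin, was above MEF mainly in BLS12 at 9.52 in MEF, 9.97 in BLS4 and 13.64 in BLS12. Of 33 matrix proteases, inhibitors and cross-linking enzymes with a row, 28 past the filter, Mmp19 alone was higher and 0 were lower at 4-fold, with a median of -0.02.

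Positional identity genes were compared because the lines come from 1 tissue and MEF from whole embryos. Of 37 Hox genes with a row, 29 past the filter, 0 differed 4-fold in both lines, 4 were higher and 4 lower at 2-fold, and the median was 0.11. At 2-fold that is 10.8% in each direction, against 1.25% higher and 2.45% lower among all genes with a row. The higher 4 included Hoxd8, at 5.87 in MEF, 7.81 in BLS4 and 8.30 in BLS12, and Hoxc13, at 4.92 in MEF, 7.29 in BLS4 and 6.92 in BLS12. Hoxd13, a gene of distal limb and genital mesenchyme, was lower by 2-fold or more at 7.10 in MEF, 5.74 in BLS4 and 5.56 in BLS12. Hoxa5 was lower at 7.77 in MEF, 6.50 in BLS4 and 6.36 in BLS12. Patterning transcription factors outside the Hox clusters, 86 with a row and 76 past the filter, gave 0 higher and 3 lower at 4-fold, with a median of -0.06. The 3 are 3.49% of those with a row, where 0.722% of all genes with a row were lower. All 3 reached the array median in MEF alone, so the count is a description. Sox11, a factor of progenitors, stood at 7.90 in MEF, 4.66 in BLS4 and 5.01 in BLS12. Eya1, a co-activator in branchial arch and kidney development, stood at 6.75 in MEF, 4.08 in BLS4 and 3.92 in BLS12, and Alx1, a craniofacial homeobox factor, at 7.70 in MEF, 5.67 in BLS4 and 5.38 in BLS12.

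Nkx2-3 and Tlx1, factors of spleen and mucosal stroma, were near the array median in all 3 cultures, at 5.88 in MEF, 6.21 in BLS4 and 5.90 in BLS12, and 5.57 in MEF, 5.83 in BLS4 and 5.56 in BLS12, respectively. Some factors split the lines. Ebf1 was above MEF in BLS4 and below it in BLS12, at 7.14 in MEF, 9.82 in BLS4 and 5.62 in BLS12. Gata6, which marks cells of the body cavity lining among others, was above MEF in BLS12 alone, at 7.60 in MEF, 6.93 in BLS4 and 10.69 in BLS12. Nfib, a nuclear factor I gene, was low in BLS4 alone, at 9.31 in MEF, 4.34 in BLS4 and 10.06 in BLS12.

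Retinoic acid induces early lymph node organizers, and its binding and synthesis genes were included for that reason. Of 21 with a row, 18 past the filter, 0 were higher and 2 lower at 4-fold, with a median of -0.07. Among all genes with a row, 0.722% were lower. The binding proteins Crabp1 and Crabp2, abundant in embryonic mesenchyme, stood at 11.09 in MEF, 6.57 in BLS4 and 6.35 in BLS12, and 9.33 in MEF, 7.19 in BLS4 and 6.13 in BLS12, respectively. Aldh1a2, the embryonic retinaldehyde dehydrogenase, was lower by 2-fold or more at 7.0 in MEF, 5.04 in BLS4 and 4.58 in BLS12, while Aldh1a1 was above MEF by 2-fold or more at 8.26 in MEF, 9.49 in BLS4 and 11.82 in BLS12. Wnt genes, 42 with a row and 38 past the filter, gave 1 higher and 1 lower, with a median of 0.00. Shares over all genes with a row were 0.196% and 0.722%, and the lower gene reached the array median in MEF alone. Sfrp1, a secreted Wnt inhibitor, was the higher gene at 8.40 in MEF, 13.04 in BLS4 and 10.75 in BLS12, and Dkk2, another secreted modulator, the lower at 8.75 in MEF, 5.63 in BLS4 and 5.13 in BLS12.

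Of 29 interferon-stimulated genes with a row, 24 past the filter, 0 differed 4-fold and 2 were higher at 2-fold, where 1.25% of all genes with a row were higher. Both lines lay above MEF in 22 of the 29, as they did in 35.1% of all genes with a row. The list median was 0.56, with 0.77 in BLS4 and 0.29 in BLS12. Stat2, which carries interferon signals to the nucleus, stood at 7.02 in MEF, 9.16 in BLS4 and 8.80 in BLS12, and Parp9 at 6.23 in MEF, 7.69 in BLS4 and 7.34 in BLS12. Rtp4 was above MEF in BLS4 and below it in BLS12, at 5.11 in MEF, 7.96 in BLS4 and 4.56 in BLS12. Antigen processing and presentation genes, 16 with a row and 14 past the filter, gave 0 at 4-fold in either direction and a median of 0.18. Tapbp, tapasin, which loads peptides on MHC class I, was higher by 2-fold or more at 9.13 in MEF, 10.34 in BLS4 and 10.65 in BLS12. Ciita and Cd74, genes of MHC class II, were below the array median in all 3 cultures.

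Complement genes gave 2 higher (C1ra and C1s1, above) and 1 lower at 4-fold out of 24 with a row, 14 past the filter, with a median of 0.06. Shares over all genes with a row were 0.196% and 0.722%, and the lower gene reached the array median in MEF alone. Serping1, the C1 inhibitor that restrains the proteases C1r and C1s, was above MEF by 2-fold or more at 7.59 in MEF, 9.48 in BLS4 and 10.68 in BLS12. C4b, a substrate of C1s, stood at 5.16 in MEF, 7.78 in BLS4 and 6.30 in BLS12. The lower gene was C3ar1, the C3a receptor of myeloid cells, at 7.78 in MEF, 4.61 in BLS4 and 4.84 in BLS12. Cd55, which protects cells from complement, lay on different sides of MEF in the lines at 7.09 in MEF, 5.36 in BLS4 and 9.76 in BLS12.

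Among metabolic lists, adipogenic and lipid handling genes, 22 with a row and 18 past the filter, gave 1 higher (Lpl) and 0 lower at 4-fold. Their median was 0.26, but 0.32 in BLS4 and -0.26 in BLS12. The adipocyte genes Adipoq, Fabp4 and Plin1 were not 2-fold above MEF in either line. The early adipogenic regulators Cebpb, at 7.68 in MEF, 9.01 in BLS4 and 9.49 in BLS12, and Cebpd, at 5.73 in MEF, 7.28 in BLS4 and 7.59 in BLS12, were above MEF by 2-fold or more. At 2-fold 4 of the list were higher and 1 lower, against 1.25% and 2.45% of all genes with a row. The lower gene was Apoe, at 10.86 in MEF, 9.80 in BLS4 and 8.17 in BLS12. Cholesterol synthesis genes, 20 with a row and all past the filter, gave 0 at 2-fold in both lines, with a median of 0.16. Glycolysis and hypoxia genes, 26 with a row and 25 past the filter, gave 0 at 4-fold, with a median of 0.20. At 2-fold 3 of these were higher and 1 lower, where the shares of all genes with a row were 1.25% and 2.45%. Pdk1, which restrains pyruvate entry into mitochondria, was above MEF by 2-fold or more at 6.77 in MEF, 9.0 in BLS4 and 8.27 in BLS12. Aldoc was the lower gene, at 7.97 in MEF, 6.38 in BLS4 and 5.41 in BLS12.

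Some lists of markers of other cell types, namely macrophage, neural and pericyte, lay below MEF, while the medians of the others were nearer 0. All such lists are given for that reason. Of 144 lower genes, 19 belong to a list of such markers and 125 do not. The lists are short, and the 125 include C3ar1, the C3a receptor of myeloid cells, and Cybb, a subunit of the phagocyte oxidase. The split therefore does not show how many lower genes are unrelated to other cell types. The count for each list is to be read beside its number of members, given below. In bulk RNA, fewer cells of a type and less RNA per cell cannot be told apart. All 25 macrophage and myeloid markers had a row, 20 passed the filter, 12 of them through MEF alone, 8 were lower at 4-fold and 0 higher, and the median was -1.55. The share of all genes with a row that were lower was 0.722%, and all 8 were among the 12, so the count is a description. Their summed intensity was 4368 in MEF, 2252 in BLS4 and 1318 in BLS12, and 20, 8 and 7 members reached the array median in that order. Mpeg1, a macrophage perforin-like protein, stood at 7.95 in MEF, 4.46 in BLS4 and 4.50 in BLS12. C1qb, a chain of complement C1q made by macrophages, stood at 7.69 in MEF, 4.56 in BLS4 and 4.60 in BLS12, and Ctss, cathepsin S, at 8.05 in MEF, 5.20 in BLS4 and 4.77 in BLS12. Adgre1, an adhesion receptor used to identify mouse macrophages, stood at 6.20 in MEF, 3.88 in BLS4 and 3.92 in BLS12. The defining leukocyte gene Ptprc, which encodes CD45, was below the median in all 3, at 5.26 in MEF, 4.52 in BLS4 and 4.06 in BLS12. Cd53, a leukocyte tetraspanin, went the other way in BLS4, at 7.50 in MEF, 9.85 in BLS4 and 6.70 in BLS12.

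Neural and Schwann cell markers, 16 with a row and 10 past the filter, gave 4 lower and 0 higher at 4-fold, with a median of -0.78 and a summed intensity of 2086 in MEF, 561 in BLS4 and 530 in BLS12. Of the 10, 7 passed through MEF alone, all 4 lower genes among them, so that count too is a description. Over all genes with a row, 0.722% were lower. Members at or above the array median numbered 10 in MEF, 3 in BLS4 and 3 in BLS12. Stmn2, a neuronal microtubule regulator, stood at 8.88 in MEF, 4.42 in BLS4 and 4.62 in BLS12. Nes, the progenitor filament nestin, stood at 9.17 in MEF, 5.12 in BLS4 and 4.74 in BLS12, and Sox2 at 6.95 in MEF, 4.61 in BLS4 and 4.38 in BLS12. Sorted LN stroma stood at 8.69 for Stmn2, near MEF, but at 5.03 for Nes and 4.35 for Sox2. The Schwann cell factor Sox10 did not move with these 3 genes, at 5.99 in MEF, 5.94 in BLS4 and 6.11 in BLS12. Pericyte markers, 8 with a row and 5 past the filter, gave 3 lower and 0 higher, with a median of -1.26 and summed intensities of 2252, 373 and 340 in MEF, BLS4 and BLS12. The 3 were Mcam, which is also in the stromal surface list, Cspg4 and Rgs5. Of these, Rgs5 reached the array median in MEF alone. The share of all genes with a row that were lower was 0.722%. Cspg4, the NG2 proteoglycan, stood at 8.27 in MEF, 5.80 in BLS4 and 5.39 in BLS12, and Rgs5, a regulator of G protein signalling, at 6.62 in MEF, 4.37 in BLS4 and 4.32 in BLS12. Members reaching the median numbered 4 in MEF, 4 in BLS4 and 3 in BLS12. In sorted LN stroma the pericyte sum was 9640, with Rgs5 at 11.30, above MEF, and Mcam at 7.62 and Cspg4 at 6.17, below it.

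Endothelial markers, 16 with a row and 8 past the filter, gave 2 lower and 0 higher, with a median of -0.04. Among all genes with a row, 0.722% were lower, and 1 of the 2, Emcn, reached the array median in MEF alone. The summed intensity of the endothelial markers was 1332 in MEF, 779 in BLS4 and 763 in BLS12. Emcn, endomucin, stood at 6.96 in MEF, 3.63 in BLS4 and 3.76 in BLS12, and Kdr, the VEGF receptor, at 7.93 in MEF, 5.86 in BLS4 and 5.76 in BLS12. The defining genes Pecam1 and Cdh5 were below the array median in all 3. Skeletal and cardiac muscle markers gave 1 lower of 23 with a row, 12 past the filter, with a median of -0.11. It was Acta1, skeletal α-actin, at 10.07 in MEF, 6.98 in BLS4 and 7.19 in BLS12, while the muscle-determining factors Myod1 and Myog were below the array median throughout. Cartilage and bone markers gave 1 lower of 18, 9 past the filter, with a median of 0.05, the gene being Col11a1. Epithelial markers (14 with a row, 7 past the filter, median -0.06), lymphocyte markers (13, 2 and 0.11) and erythroid markers (7, 1 and 0.04) gave 0 at 4-fold in either direction.

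Among sex-linked transcripts, Xist alone differed 4-fold. Xist, the RNA that coats the inactive X chromosome in female cells, stood at 7.62 in MEF, 4.23 in BLS4 and 4.19 in BLS12. The Y-linked genes Eif2s3y, at 7.61 in MEF, 8.66 in BLS4 and 8.68 in BLS12, Kdm5d, at 6.35 in MEF, 7.24 in BLS4 and 7.28 in BLS12, and Uty, at 6.86 in MEF, 7.97 in BLS4 and 7.68 in BLS12, were present in MEF and higher in the lines by a mean of 1.07 log2 units for Eif2s3y, 0.97 for Uty and 0.91 for Kdm5d. MEF thus carried both Xist and Y-linked RNA, while the lines carried Y-linked RNA with Xist at the level of dim genes. Of 6 sex-linked transcripts with a row, 5 past the filter, 1 was lower at 4-fold, 4 did not differ 2-fold in both lines, and the median was 0.60. Sry, the Y-linked testis-determining gene, stood at 6.24 in MEF, 6.53 in BLS4 and 6.47 in BLS12. Ddx3y had no row that named it alone and was not analysed here. The share of sex-linked RNA in other differences was not tested.

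**Figure D4:**
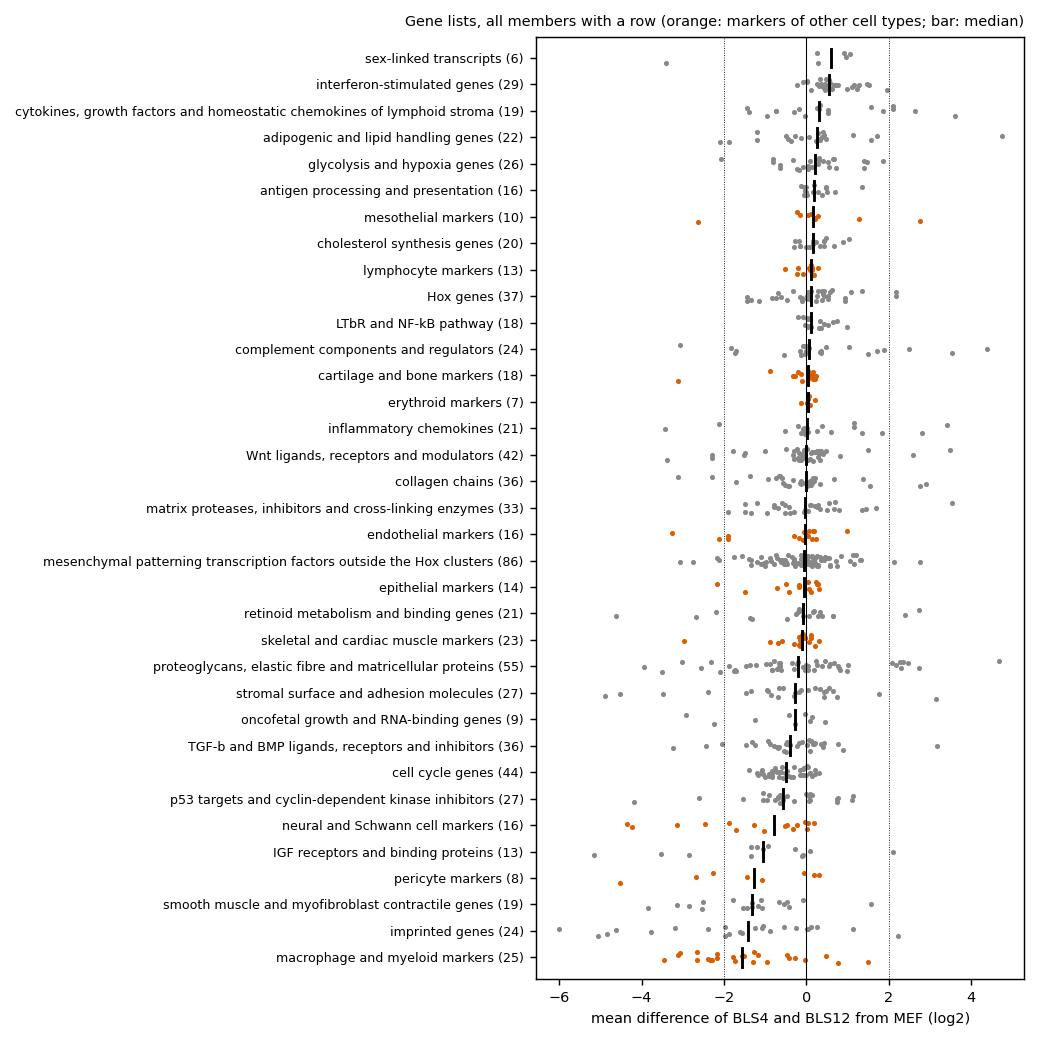
Mean difference of BLS4 and BLS12 from MEF, in log2 units, for each member with a row (points) of 25 gene lists (grey) and 10 lists of other cell types' markers (orange), with the median as a bar, the number of members in brackets and dotted lines at 4-fold. Macrophage, imprinted, contractile, pericyte and IGF lists have the lowest medians, from -1.55 to -1.06, and the interferon list (0.56) and the 6 sex-linked genes (0.60) the highest.

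The lines did not act as 1 group for every gene. In 10 genes, 0.0789% of those compared, BLS4 and BLS12 stood at least 4-fold from MEF on opposite sides, 5 with BLS4 higher and 5 with BLS12 higher. Gpm6a, a membrane glycoprotein of neurons and mesothelium, stood at 7.90 in MEF, 4.47 in BLS4 and 11.77 in BLS12. Igfbp4, another IGF-binding protein, stood at 9.10 in MEF, 6.28 in BLS4 and 11.70 in BLS12. Plac8 stood at 7.19 in MEF, 4.85 in BLS4 and 10.04 in BLS12, and Ndrg2, a stress- and differentiation-responsive gene, at 7.83 in MEF, 5.63 in BLS4 and 10.05 in BLS12. In these BLS12 was the higher line. Adam23, a cell adhesion protein of the ADAM family, stood at 7.93 in MEF, 10.55 in BLS4 and 5.55 in BLS12, and Gpx3, a secreted glutathione peroxidase, at 7.75 in MEF, 11.30 in BLS4 and 5.55 in BLS12, both with BLS4 higher. The other genes with BLS4 higher were Rspo2, an enhancer of Wnt signalling, at 7.18 in MEF, 10.12 in BLS4 and 5.04 in BLS12, Nbl1, a BMP antagonist, at 8.04 in MEF, 10.15 in BLS4 and 5.76 in BLS12, and Mamdc2 at 7.87 in MEF, 9.95 in BLS4 and 4.68 in BLS12. Vnn1, pantetheinase, had BLS12 higher, at 7.64 in MEF, 4.98 in BLS4 and 9.73 in BLS12. With both lines required at the array median along with MEF, 2 of the 10 were left.

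Several mesothelial markers were highest in BLS12. All 10 had a row, 9 passed the filter, and 0 differed 4-fold in both lines. The median was 0.17 for the mean of the lines, with -0.54 in BLS4 and 0.65 in BLS12, and the summed intensity was 4453 in MEF, 3760 in BLS4 and 10702 in BLS12. Upk3b, an uroplakin of mesothelium, stood at 8.04 in MEF, 6.47 in BLS4 and 10.17 in BLS12. Bnc1, a zinc finger factor, stood at 5.73 in MEF, 5.89 in BLS4 and 11.10 in BLS12, and Lrrn4 at 6.46 in MEF, 5.47 in BLS4 and 10.02 in BLS12. All of these were highest in BLS12. Wt1, a mesothelial transcription factor, was little different, at 6.42 in MEF, 6.33 in BLS4 and 6.76 in BLS12, and Upk1b was lower than MEF in both lines, at 9.21 in MEF, 5.23 in BLS4 and 7.96 in BLS12.

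Cell cycle genes set BLS4 apart from BLS12 and MEF. All 44 with a row passed the filter, 0 differed 2-fold in both lines, and in 30 the lines lay on different sides of MEF. The median difference was -1.34 in BLS4 and 0.30 in BLS12. Mki67, a nuclear protein of dividing cells, stood at 8.49 in MEF, 6.54 in BLS4 and 8.77 in BLS12. Top2a, topoisomerase IIα, stood at 9.29 in MEF, 7.12 in BLS4 and 10.13 in BLS12, and the replication helicase subunit Mcm6 at 8.94 in MEF, 6.96 in BLS4 and 9.62 in BLS12. For Mki67, Top2a and Mcm6 BLS12 was above MEF and BLS4 below it. In 11 of the 44 both lines lay below MEF and in 3 above it. Among the 11 were Rrm2, at 9.77 in MEF, 7.94 in BLS4 and 8.80 in BLS12, and Cdc20, at 8.75, 7.26 and 8.26. Ccnd1, cyclin D1, was below MEF in both lines at 11.76 in MEF, 10.94 in BLS4 and 10.93 in BLS12. Of 27 p53 targets and kinase inhibitors, all past the filter, 2 were lower at 4-fold and 0 higher, with a median of -0.56. Among all genes with a row, 0.722% were lower, and 1 of the 2, Perp, reached the array median in MEF alone. Perp, a p53 target and desmosome gene, stood at 8.79 in MEF, 4.40 in BLS4 and 4.83 in BLS12, and Pmaip1, the death factor NOXA, at 10.21 in MEF, 7.11 in BLS4 and 8.08 in BLS12. Cdkn2a, whose products arrest or age cultured fibroblasts, was present in all 3 at 9.55 in MEF, 9.24 in BLS4 and 8.93 in BLS12.

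**Figure D5:**
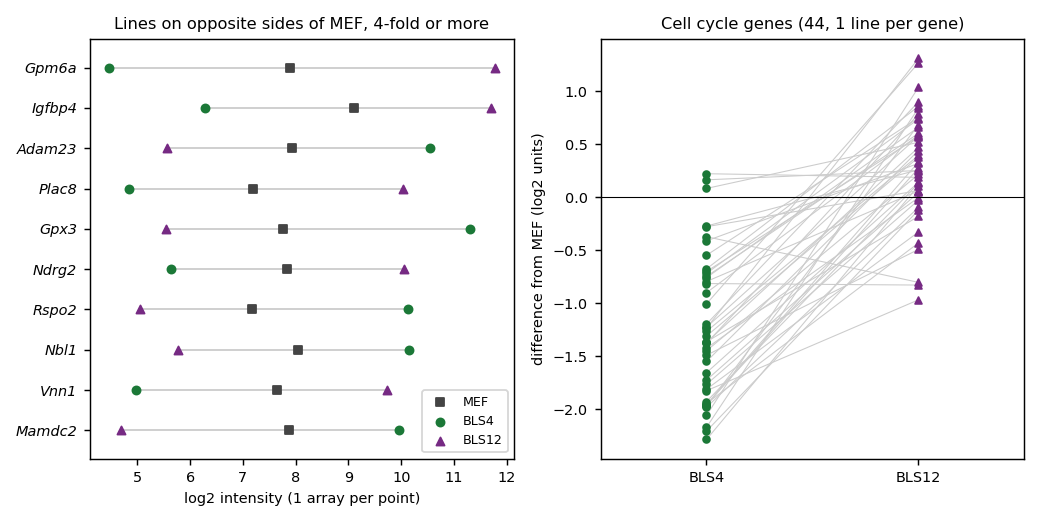
Left, log2 intensity of the 10 genes in which the lines lie at least 4-fold from MEF on opposite sides (MEF grey squares, BLS4 green circles, BLS12 purple triangles, 1 array per point). Right, difference from MEF in log2 units of 44 cell cycle genes in BLS4 and BLS12, each gene joined by a line, with the median at -1.34 in BLS4 and 0.30 in BLS12.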

How the data were processed

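RNA of 6 samples was hybridised to single-colour Affymetrix arrays. The authors deposited 1 table of intensity values on a linear scale, with Affymetrix Expression Console 1.1 named in the submitters' processing notes. The summarising and normalising algorithm and the genome build are not given in the sources used here, and the table gives no detection calls. Array medians lay between 51.5 and 56.3 intensity units. Of 35557 rows, 21789 (61.3%) name 1 gene in the platform annotation, 1621 several and 12147 none. Of these single-gene rows, 21698 matched RefSeq (GRCm38.p6) by Entrez identifier. Log2 was taken with no pseudocount (lowest intensity 3.55). For 999 genes with several rows, the row brightest on average across all 6 arrays stood for the gene, and 701 rows carry values identical to another row.

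Genes at or above the array median in at least 1 of the 3 arrays were compared by the 4-fold rule and with limma 3.58.1 (R 4.3.3, lmFit and eBayes, two-sided, Benjamini-Hochberg, threshold 0.05), which was run on simulated data as well. There the MEF array was drawn with the same spread as the lines. Those data therefore could not test whether the lone MEF array varies as the lines do. Where nothing says that cultures were separate, p-values measure only the spread between these arrays. Named genes were the 15 with the largest smaller-of-both-lines difference in each direction, up to 6 on opposite sides of MEF, up to 5 per list with members needed to account for it, and a fixed set of stromal and marker genes; predicted genes and small RNAs were left out of the first. The members and the 35 lists were chosen with earlier results of these data known. No adjusted p over a list alone and no set test is given. Alternatives covered scaling, the filter, a floor, the row per gene, identical rows, the fold, the fit and leaving out a line. Tables were handled in Python 3.11.15 with pandas 2.3.3.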

Additional observations from a re-analysis of the deposited data

Results flagged for a closer look

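In 6 genes BLS4 and BLS12 stood on opposite sides of MEF by 4-fold or more, with the largest smaller size among 10 such genes; with 1 array per line the difference between the lines was not tested. BLS12 minus BLS4 was 7.31 log2 units for Gpm6a, 5.42 for Igfbp4, 5.20 for Plac8 and 4.41 for Ndrg2. It was -5.0 for Adam23 and -5.75 for Gpx3. The antibody-treated arrays of the same lines gave 4.71 in BLS4 and 9.79 in BLS12 for Gpm6a, 5.55 and 11.14 for Igfbp4, and 10.14 and 6.06 for Gpx3, so that the order of the lines was the same in those cultures.

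Rows outside the gene comparison also carried signal. Of 13768 rows that name several genes or none, 82 were at least 4-fold from MEF in both lines, 14 higher and 68 lower, and 78 of the 82 name no gene. The other 4 name several. The mean difference was 4.36 for the row of C1rb and C1ra and 2.90 for the row of the interferon-inducible genes Ifi211 and Ifi204. It was -2.62 for the row of AF357355 and Rian, which belong to the imprinted Meg3 locus, and -4.22 for the row of Mir675 and Supt6. No single gene can be assigned to these rows.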

How the results depend on the processing

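The counts of 39 higher and 144 lower genes were 41 and 144 with each array centred on its median, 41 and 145 after quantile normalization, 39 and 147 with no filter, 33 and 97 with dim values raised to the array median, 39 and 142 with the mean over rows of a gene, and 39 and 144 without identical rows. They moved to 24 and 41 when all 3 arrays had to reach the median, to 250 and 488 at 2-fold and to 10 and 52 at 8-fold. With 1 line left out, 142 to 178 were higher and 243 to 285 lower, by construction since only 1 line had to differ. The 10 genes on opposite sides of MEF became 2 with all 3 arrays at the median, an alternative chosen after seeing the data. The limma count was 0 under every other alternative run over the 3 arrays and 30 over all 6 arrays in 4 groups. Those 30 calls did not hold without the unstimulated array of either line, where only the antibody-treated arrays gave the spread. Of 196 named genes, 14 fell under 4-fold in 1 of the settings that kept both lines, 13 of them with dim values raised to the median, and 0 changed sign in a called difference. List medians of at least 0.1 in size changed sign in 6 cases. Of 11 lists with a median nearer 0, 6 also had the other sign in 1 line. With either line left out, medians ranged from -0.037 to 0.356 for lymphoid stroma cytokines, from -0.261 to 0.316 for adipogenic genes, from -1.336 to 0.297 for cell cycle genes, from -0.044 to 0.13 for lymphocyte markers and from -0.54 to 0.65 for mesothelial markers, the BLS12 end being the negative one except for cell cycle and mesothelial genes. With dim values raised to the median it was -0.03 for lymphocyte markers. The causes were not tested.

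No paired analysis was possible because the MEF group has 1 array. The lone MEF array limits every statement: its own spread is unknown. Values below the array median have no detection call, so small differences among them have little meaning.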

Other observations

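Of the 183 genes called by size, 28 higher and 89 lower ones stood in none of the 35 lists, and those given here were chosen after their values were seen. No theme was tested among them. Of the lower ones, Gap43, a growth cone protein, stood at 9.16 in MEF, 5.83 in BLS4 and 5.89 in BLS12. The teneurin Tenm3 stood at 9.02 in MEF, 4.79 in BLS4 and 4.72 in BLS12, the protocadherin Pcdh9 at 8.55 in MEF, 4.66 in BLS4 and 4.58 in BLS12 and the guidance receptor Robo1 at 8.61 in MEF, 6.57 in BLS4 and 5.75 in BLS12. Ptgs2, the inducible cyclooxygenase, stood at 11.94 in MEF, 9.0 in BLS4 and 9.26 in BLS12 and at 13.21 in sorted LN stroma. Gpc3, a glypican that limits growth in the embryo, stood at 9.14 in MEF, 5.42 in BLS4 and 5.16 in BLS12 and at 11.38 in sorted LN stroma. Hbegf, a ligand of the EGF receptor, stood at 10.0 in MEF, 7.03 in BLS4 and 7.45 in BLS12. Cybb, a subunit of the phagocyte oxidase, stood at 6.86 in MEF, 4.36 in BLS4 and 4.28 in BLS12, and Lcp1, the leukocyte plastin, at 8.04 in MEF, 5.28 in BLS4 and 5.82 in BLS12.

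Of the higher ones, Ifi27 stood at 7.06 in MEF, 9.61 in BLS4 and 9.20 in BLS12 and Ifi203 at 4.31 in MEF, 7.54 in BLS4 and 6.99 in BLS12. Lgals3bp, a secreted galectin-binding protein, stood at 8.36 in MEF, 11.55 in BLS4 and 10.50 in BLS12. Cemip, which takes part in the breakdown of hyaluronan, stood at 8.88 in MEF, 11.12 in BLS4 and 10.97 in BLS12. Clec2d, a ligand of killer cell receptors, stood at 6.58 in MEF, 9.14 in BLS4 and 9.34 in BLS12 and at 9.82 in sorted LN stroma, and Avpr1a, a vasopressin receptor, at 7.18 in MEF, 9.88 in BLS4 and 9.52 in BLS12. No test was run on these genes apart from the limma fit over all genes, in which 0 passed over the 3 arrays, with 815 genes at an unadjusted p under 0.05.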
